A study of Mus musculus with 54 samples.

Results

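The comparison set swim against control subcutaneous white fat of the mouse. It used every array labelled with that tissue, 4 swim arrays (21 to 24) and 4 control arrays (17 to 20), which together were 8 of the 54 arrays of the series. The series measured gene expression on arrays in 7 tissues of C57BL/6 mice and, by its title, asks how organs other than muscle respond to exercise at the level of transcripts. Swim mice were 11 to 12 weeks old when acclimation began, were acclimated for 9 days in steps of 10 min, and then swam for 3 weeks in 2 sessions per day of 90 min, in the morning and the afternoon, with 4 hours of rest between them. The arrays of both groups carry an age of 14 weeks. The labels give no sex, no collection time, no batch and no statement of which tissues share a mouse. They also do not say that the 4 arrays of a group came from separate mice, so the p-values measure the spread between these arrays, which may be technical in part.

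Subcutaneous white fat stores triglyceride in large adipocytes among capillaries, fibroblasts and macrophages, and the inguinal pad of the mouse holds a lymph node within the fat. Fat tissue runs a circadian clock in which the activators Arntl, Clock and Npas2 switch on the repressors of the Period, Cryptochrome and Rev-erb families, and PAR-domain factors such as Tef and Hlf carry the rhythm to other genes. Interferon-stimulated genes form another programme that is set together, by transcription factors such as Irf9 and Irf7 in response to interferons, and macrophages are among the cells that express it.

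All levels below are log2(signal + 16) after quantile normalization of the 8 arrays, and differences are swim minus control on that scale. The arrays differed in what tissue they held. Glycam1, a mucin of the lymph node venules, stood at 5.71, 11.78, 13.16 and 6.03 in swim arrays 21, 22, 23 and 24, against 5.69, 13.16, 13.64 and 13.50 in control arrays 17, 18, 19 and 20. Lymph node transcripts were thus present in 2 swim and 3 control arrays and absent (Glycam1 below 9) from swim 21, swim 24 and control 17. The 15 B cell genes measured followed the same split, with list means of 5.25 to 9.70 over swim arrays and 5.46 to 10.92 over control arrays.

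Transcripts of other tissues also differed between arrays. The 11 kidney genes averaged 12.11 in swim 22 and between 5.6 and 6.12 in the other 7 arrays. The deposited signal of Umod, the urinary protein of the loop of Henle, was 35416.81 in swim 22. That lay within the 27400.27 to 49056.49 of the series' 8 kidney arrays. Over the 11 kidney genes, the signal of swim 22 was 45.3% (Slc5a2) to 78.9% (Umod) of the kidney median. Some of them lay below every kidney array, such as Slc5a2 at 2898.71 against a lowest kidney array of 4448.14. The 11 skeletal muscle genes averaged 10.87 in swim 23, 7.98 in control 20 and 5.93 to 6.45 in the rest. The 9 liver genes averaged 8.05, 9.64, 6.48 and 8.1 in swim arrays 21 to 24, against 8.35, 6.84, 9.06 and 7.05 in control arrays 17 to 20. The 6 skin genes averaged 12.03 in swim 24 and 6.15 to 6.80 elsewhere. The 6 genes of mammary and other epithelium averaged 8.06 in swim 22, 8.84 in swim 24 and 6.06 to 6.63 elsewhere. Krt5, a keratin of basal epithelia, stood at 15.24 in swim 24 and at 5.42 to 5.74 in the other arrays. Genes more than 4-fold above all 7 other arrays numbered 145 in swim 22, 42 in swim 24, 14 in swim 23, 5 in control 19, 4 in control 17, 2 in control 20 and 0 in swim 21 and control 18. The defining markers of adipocytes were high throughout, with a mean of the 17 adipocyte genes of 11.96, 10.97, 11.57 and 11.73 in swim arrays 21 to 24, against 11.84, 10.86, 10.08 and 10.66 in control arrays 17 to 20. In whole tissue, fewer cells of a type and less RNA per cell cannot be told apart.

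**Figure D1:**
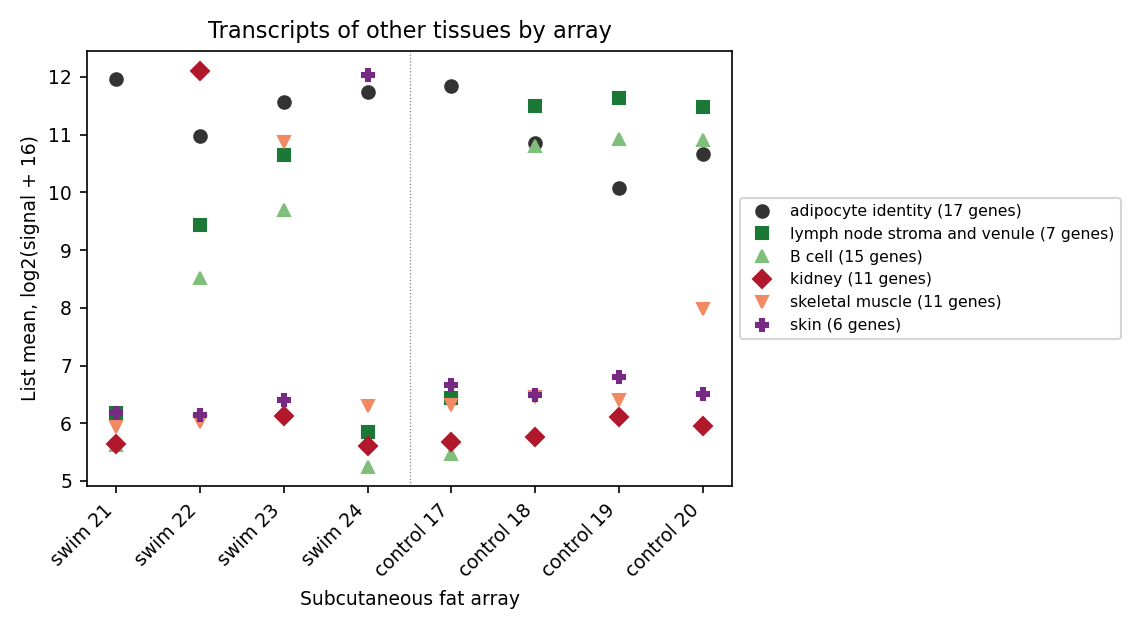
Mean level (log2 of signal + 16) of 6 marker lists in each subcutaneous fat array, swim arrays on the left and control arrays on the right. Kidney genes reach 12.11 in swim 22, muscle genes 10.87 in swim 23 and skin genes 12.03 in swim 24, and the lymph node and B cell lists are low in swim 21, swim 24 and control 17.

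No gene passed limma's test at an adjusted p under 0.05 (0 of 11548, 0%), and the smallest adjusted p was 0.166. At an unadjusted p under 0.05 there were 1206 genes higher and 1283 lower in swim arrays. The count at the adjusted threshold depended on control 17. Without that array 2084 genes passed an adjusted p under 0.05 higher and 1892 lower, and the 3 control arrays left all held lymph node transcripts while swim 21 and swim 24 did not. With presence of lymph node transcripts as a block, a fit chosen after the data were seen, 62 genes passed, 40 higher and 22 lower in swim arrays. The groups below are therefore described by their levels on every array, by the test over all 8 arrays and by the blocked test. Also given is whether swim and control arrays stayed apart both among the 5 arrays with lymph node transcripts and among the 3 without. The block and the strata record presence only, not amount. Where lymph node transcripts were present, the B cell list mean was 8.52 in swim 22 and 9.70 in swim 23. It was 10.8, 10.92 and 10.91 in control arrays 18 to 20. Neither the block nor the strata remove that difference between the groups.

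Of the 16 clock genes tested, 8 stood higher in swim arrays without overlap between the groups (3.54% of all genes) and 2 stood lower (5.52% of all genes), while 6 overlapped. Per3, a Period repressor, stood at 9.48, 8.47, 8.72 and 9.52 in swim arrays 21 to 24, against 7.51, 6.57, 6.20 and 6.52 in control arrays 17 to 20. Each swim array exceeded each control array, and within both groups the arrays without lymph node transcripts were the high ones. The difference was 2.35 ± 0.35 (SE, n = 4 each; adjusted p = 0.166 in limma), and 2.10 ± 0.14 with the block, where Per3 had the smallest adjusted p of all genes (0.00662). Per2, its paralogue, was at 8.34, 8.36, 7.96 and 8.76 in swim arrays, against 6.34, 6.78, 6.88 and 6.31 in control arrays. Its difference was 1.78 ± 0.22 over all arrays and 1.76 ± 0.23 with the block (adjusted p = 0.0333), so that the lymph node split moved it little. Arntl, the activator that pairs with Clock, went the other way, at 5.63, 6.21, 6.90 and 6.13 in swim arrays, against 7.61, 7.8, 7.82 and 7.69 in control arrays. The 4 control arrays lay close together (SD 0.10) and all above the swim arrays. Arntl differed by -1.51 ± 0.25 and by -1.40 ± 0.21 with the block (adjusted p = 0.0482).

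Other clock genes also did not overlap. Hlf and Tef, the PAR-domain activators, differed by 2.18 ± 0.32 and 2.09 ± 0.36, and passed with the block (adjusted p = 0.0339 for Hlf and 0.0417 for Tef). Nr1d2, the nuclear receptor Rev-erb beta that represses Arntl, differed by 1.32 ± 0.20 and Bhlhe41, a repressor that binds E-boxes, by 1.68 ± 0.37, and both passed with the block at an adjusted p of 0.0333. Ciart, a repressor that binds Arntl, was at 7.59, 7.36, 6.36 and 7.61 in swim arrays, against 4.73, 5.87, 5.95 and 5.29 in control arrays. Its groups did not overlap and its difference of 1.77 ± 0.37 did not pass with the block (adjusted p = 0.0939). The control mean of Ciart was 5.46, and its swim values carried it past the filter on dim probe sets. The second probe set of Ciart differed by 1.31, and that of Nr1d2, which was dimmer, by 0.37 with overlap. Npas2, the activator related to Clock, was at 5.53, 5.61, 5.29 and 5.75 in swim arrays, against 7.65, 6.41, 6.75 and 6.16 in control arrays. The groups again did not overlap. The swim mean of Npas2 was 5.54, and its control values carried it past that filter. Usp2, a deubiquitinase under clock control, was at 9.69 in swim 22, the array with kidney transcripts, and at 7.6 to 8.05 in the other swim arrays, against 6.17 to 7.12 in control arrays. Its difference of 1.69 ± 0.47 was 1.21 without swim 22.

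The other clock genes overlapped between groups. Cry2 differed by 0.80, Per1 by 0.62, Clock by 0.24, Cry1 by 0.22, Bhlhe40 by 0.04 and Nfil3, a repressor of D-boxes, by -0.50, and the sign of Clock and Bhlhe40 changed under some other settings. In Per1 the swim excess was 1.39 among arrays without lymph node transcripts and 0.10 among those with them. Of the 16 clock genes tested, 8 were higher at an unadjusted p under 0.05 (10.4% of all genes) and 2 lower (11.1% of all genes). Within both lymph node strata the groups stayed apart for 9 higher genes (10.9% of all genes) and 2 lower ones (13.8%). With the block 6 passed higher (0.346% of all genes) and 1 lower (0.191%). Without control 17, 9 of 15 passed higher (18.1% of all genes) and 1 lower (16.4%). The median difference of the list was 1.06, beside 0.05 over all genes, and 0.91 and 0.82 in the arrays with and without lymph node transcripts. Dbp and Nr1d1 had no probe set annotated with that symbol alone.

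**Figure D2:**
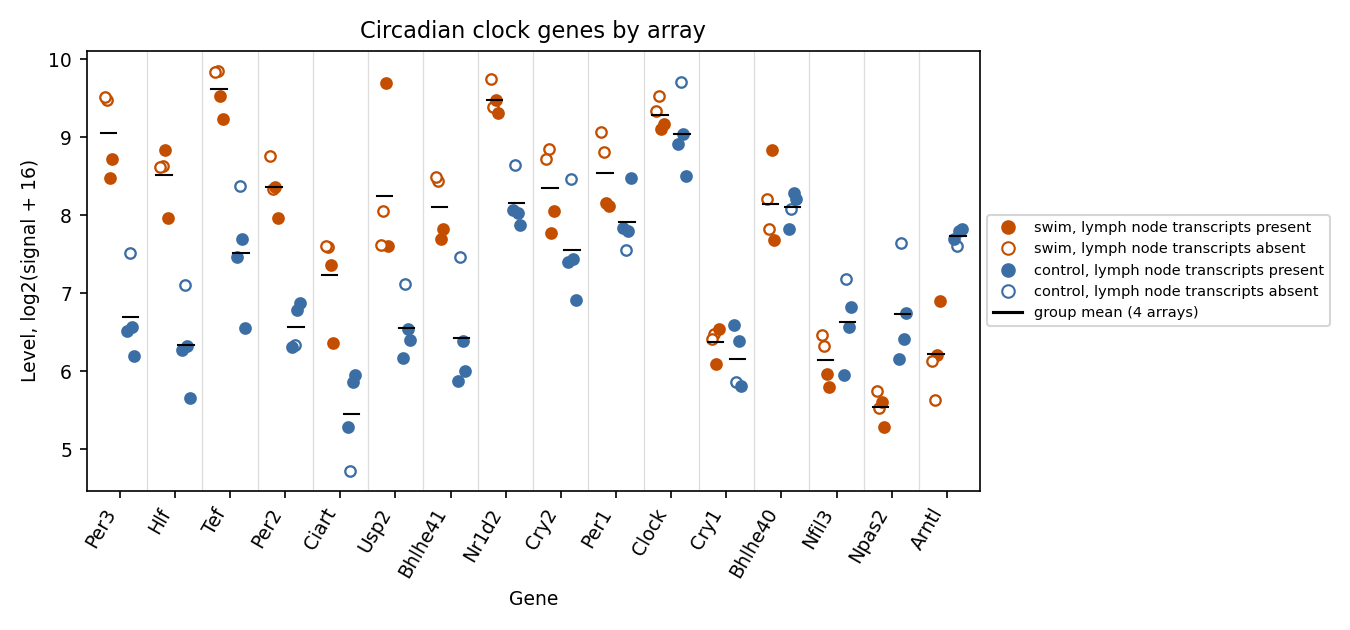
Level of the 16 clock genes on each array (log2 of signal + 16), swim points left of control points for each gene, filled where lymph node transcripts were present and open where absent, with a bar at each group's mean of 4 arrays. Per3, Hlf, Tef, Per2, Ciart, Usp2, Bhlhe41 and Nr1d2 show every swim array above every control array, and Npas2 and Arntl the reverse.

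The promoters of 3 of these genes are shown because they carry the short elements through which the clock is known to act. Of the 16 genes, 14 had a window in the RefSeq table used (GRCm38.p6), and each line gives the 250 bases before the annotated start, 5′ to 3′ on the strand of the gene. Capitals mark the E-box CACGTG, bound by Arntl with Clock or Npas2, and the D-box TTATGTAA, bound by Tef and Hlf, searched on both strands.
Per3, chr4:151044666-151044915, minus strand: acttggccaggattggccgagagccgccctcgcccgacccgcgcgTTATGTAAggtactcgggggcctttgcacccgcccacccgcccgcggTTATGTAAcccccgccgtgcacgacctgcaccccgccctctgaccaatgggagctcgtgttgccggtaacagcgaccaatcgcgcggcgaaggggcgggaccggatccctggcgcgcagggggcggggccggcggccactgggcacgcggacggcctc
Ciart, chr3:95882229-95882478, minus strand: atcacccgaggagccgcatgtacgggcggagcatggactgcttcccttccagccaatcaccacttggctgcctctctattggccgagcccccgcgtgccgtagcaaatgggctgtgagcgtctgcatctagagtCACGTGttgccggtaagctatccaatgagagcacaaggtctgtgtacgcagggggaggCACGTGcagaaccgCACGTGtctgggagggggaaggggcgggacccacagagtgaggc
Bhlhe41, chr6:145865421-145865670, minus strand: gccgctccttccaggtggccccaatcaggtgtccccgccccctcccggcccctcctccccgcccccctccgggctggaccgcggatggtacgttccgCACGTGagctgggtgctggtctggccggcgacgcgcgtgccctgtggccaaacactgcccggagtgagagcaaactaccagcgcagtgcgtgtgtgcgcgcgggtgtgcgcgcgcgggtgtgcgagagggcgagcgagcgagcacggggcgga
The Per3 window held D-boxes that end 197 and 150 bases before the start, and the E-boxes of Ciart ended 110, 52 and 38 bases before it. Bhlhe41 had 1 E-box, ending 147 bases before the start. An E-box was also present in windows of Tef, and of Cry1 and Per1, whose groups overlapped. The windows of Hlf, Nr1d2, Usp2, Arntl and Npas2, whose groups did not overlap, held neither motif. An E-box was present in 6 of 19 windows of the clock genes (31.6%) and in 6.02% of all 32851 windows, and a D-box in 1 of 19 (5.26%) and 0.819% of all. No motif overlapped another in these windows. A match describes these letters in this window, not a bound site.

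Of 27 interferon-stimulated genes tested, 26 had lower means in swim arrays. Irf7, the factor that amplifies interferon transcription, was at 8.24, 7.41, 7.87 and 7.63 in swim arrays 21 to 24, against 9.00, 9.21, 9.66 and 9.16 in control arrays 17 to 20. Oas1a, a synthetase of 2′-5′ oligoadenylate that arms RNase L against viral RNA, was at 5.35, 5.24, 5.68 and 5.53 in swim arrays, against 6.86, 6.64, 6.91 and 6.35 in control arrays. In both genes all swim arrays lay below all control arrays, control 17 included. The swim mean of Oas1a was 5.45, and its control values carried it past the filter on dim probe sets. It was tested in 22 of 28 alternative settings. Irf7 differed by -1.47 ± 0.22 (adjusted p = 0.166 in limma, 0.0490 with the block). Oas1a differed by -1.24 ± 0.17 (adjusted p = 0.166, and 0.0387 with the block). Oasl2 and Oasl1, the OAS-like antiviral proteins, fell by 1.58 ± 0.25 and 1.69 ± 0.26 with the block, both at an adjusted p of 0.0482. Rtp4, an interferon-induced chaperone-like protein, was at 7.90, 7.58, 7.94 and 7.27 in swim arrays, against 9.14, 8.85, 9.72 and 8.60 in control arrays, and did not pass with the block (adjusted p = 0.0847). Members of the OAS family are alike in sequence, and sharing of probes between them was not tested.

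At an unadjusted p under 0.05, 24 interferon-stimulated genes were lower (11.1% of all genes) and 0 higher. For 16 of them the highest swim array was below the lowest control array (5.52% of all genes). They stayed apart within both lymph node strata for 24 (13.8% of all genes). The block called 4 lower (0.191% of all genes), and without control 17 the test called 22 of 26 lower (16.4% of all genes). The list's median difference was -1.24, and it was -1.29 in arrays with lymph node transcripts and -0.75 in those without, where 1 control array stands against 2 swim arrays. The list mean was 7.63, 7.31, 7.86 and 7.29 in swim arrays and 8.23, 8.68, 9.14 and 8.72 in control arrays. Control 19, the highest, also had the acute-phase gene Saa2 6.03 above every other array.

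The promoter of Oas1a is shown with that of Rsad2, an antiviral enzyme of the same list that was picked for its promoter after its values were seen. Capitals mark the core of the interferon-stimulated response element, GAAA, any pair of bases, GAAA, on either strand.
Oas1a, chr5:120907526-120907775, minus strand: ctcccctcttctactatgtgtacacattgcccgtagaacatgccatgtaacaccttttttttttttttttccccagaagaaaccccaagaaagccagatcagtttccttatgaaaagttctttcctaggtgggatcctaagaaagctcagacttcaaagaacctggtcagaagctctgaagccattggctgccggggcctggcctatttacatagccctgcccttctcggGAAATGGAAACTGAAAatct
Rsad2, chr12:26456453-26456702, minus strand: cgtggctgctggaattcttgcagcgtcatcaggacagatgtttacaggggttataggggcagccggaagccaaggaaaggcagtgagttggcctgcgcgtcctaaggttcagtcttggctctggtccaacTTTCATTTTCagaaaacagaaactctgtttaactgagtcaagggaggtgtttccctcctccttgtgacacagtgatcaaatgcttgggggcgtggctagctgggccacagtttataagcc
In Oas1a the core matched at overlapping positions that end 10 and 4 bases before the start, and in Rsad2 it ended 110 bases before the start. It was present in 9 of 24 windows of the 19 listed genes that had any (37.5%) and in 2.98% of all windows. Irf7, Oasl1 and Oasl2 had windows without these letters. Rsad2 was at 7.30, 7.89, 6.94 and 6.78 in swim arrays, against 7.70, 7.51, 8.71 and 8.10 in control arrays, which overlapped, with a difference of -0.78 ± 0.33.

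Of 26 macrophage genes tested, 22 had lower means in swim arrays and 4 had higher ones. Itgax, the integrin chain CD11c, was at 6.08, 6.13, 6.78 and 6.06 in swim arrays 21 to 24, against 7.06, 7.53, 7.90 and 7.98 in control arrays 17 to 20. Cd68, a lysosomal glycoprotein, was at 8.14, 8.47, 8.64 and 8.35 in swim arrays, against 8.99, 9.34, 9.91 and 10.03 in control arrays. C1qa, a chain of complement C1q, was at 8.35, 8.35, 8.64 and 8.35 in swim arrays, against 9.18, 9.03, 9.53 and 9.56 in control arrays. None of the 3 overlapped between groups, and swim 23 was the highest swim array in each. Their differences were -1.36 ± 0.26, -1.16 ± 0.25 and -0.90 ± 0.17, and with the block their adjusted p was 0.0506 for Itgax and 0.0821 for both Cd68 and C1qa. The integrin chain Itgam differed by -0.94 ± 0.20 and the high-affinity IgG receptor Fcgr1 by -1.38 ± 0.30, also without overlap.

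At an unadjusted p under 0.05, 18 macrophage genes were lower (11.1% of all genes) and 0 higher, and 10 did not overlap (5.52% of all genes). Swim and control arrays stayed apart within both strata for 21 lower genes (13.8% of all genes) and 1 higher one (10.9% of all genes). The 4 with higher means, named after their values were seen, were the scavenger receptor Cd163 (1.04 ± 0.50), Gpnmb (0.34 ± 0.60), the lectin Lgals3 (0.29 ± 0.34) and the mannose receptor Mrc1 (0.01 ± 0.28), and the last 3 changed sign under some other settings. The median difference was -0.92, at -0.86 with and -0.70 without lymph node transcripts. The block called 1 member, Ctss, the lysosomal protease cathepsin S, which fell by 1.12 ± 0.17 (adjusted p = 0.0482) and was named after its values were seen. Without the block Ctss differed by -1.45, with overlap between the groups. Without control 17, 16 passed lower (16.4% of all genes) and 1 higher (18.1% of all genes). Lymph nodes contain macrophages too, and the lymph node list mean was 5.85 to 10.64 over swim arrays and 6.43 to 11.63 over control arrays. Its part in the result was not tested beyond the block and the strata.

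Among the 10 genes lower in swim arrays with the smallest p were Adam8, a metalloprotease of leukocytes, Cd300a, an inhibitory receptor of myeloid cells, Slc11a1, a metal transporter of phagosomes, and Ly6e, an interferon-inducible surface protein. Their differences were -1.48 ± 0.25, -0.90 ± 0.15, -0.89 ± 0.16 and -1.11 ± 0.20, and Adam8 passed with the block (adjusted p = 0.0333). Gem, a small GTPase, and Wdr83os differed by -0.65 ± 0.11 and -0.84 ± 0.15. Gem varied within 6.31 to 6.40 over swim arrays and within 6.97 to 7.04 over control arrays.

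Among chemokines, Ccl8, which attracts monocytes, was at 6.09, 7.76, 8.31 and 5.65 in swim arrays, against 8.97, 9.50, 10.27 and 10.44 in control arrays. It fell by 2.42 ± 0.31 with the block (adjusted p = 0.0333). Ccl3, Ccl7 and Cxcl1, which draw monocytes or neutrophils, differed by -1.08, -1.40 and -0.54 without overlap, and Cxcl14 by 1.57 with overlap. Of 16 chemokines tested, 6 were lower (11.1% of all genes) and 1 higher (10.4% of all genes) at an unadjusted p under 0.05. The list's median was -1.12 with lymph node transcripts and -0.03 without. The 8 genes of MHC class II presentation had 0 at an unadjusted p under 0.05 in either direction, with a median of -1.48 that was -0.02 in the arrays without lymph node transcripts. Without control 17 all 8 passed the adjusted threshold lower (16.4% of all genes), and without swim 23, 4 were lower at an unadjusted p under 0.05. Cd74, the invariant chain, was at 10.02, 10.99, 11.63 and 10.34 in swim arrays, against 10.19, 12.68, 12.78 and 12.67 in control arrays. The 16 cell cycle genes likewise had a median of -0.92 with lymph node transcripts and 0.41 without. Of the 16, 4 were lower at an unadjusted p under 0.05 (11.1% of all genes), including the replication helicase subunit Mcm5 at -1.1 ± 0.45. Mcm5 was 0.18 in arrays without lymph node transcripts. The 4 became 0 without swim 22, swim 24 or control 19, and without control 17, 14 passed the adjusted threshold lower (16.4% of all genes).

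**Figure D3:**
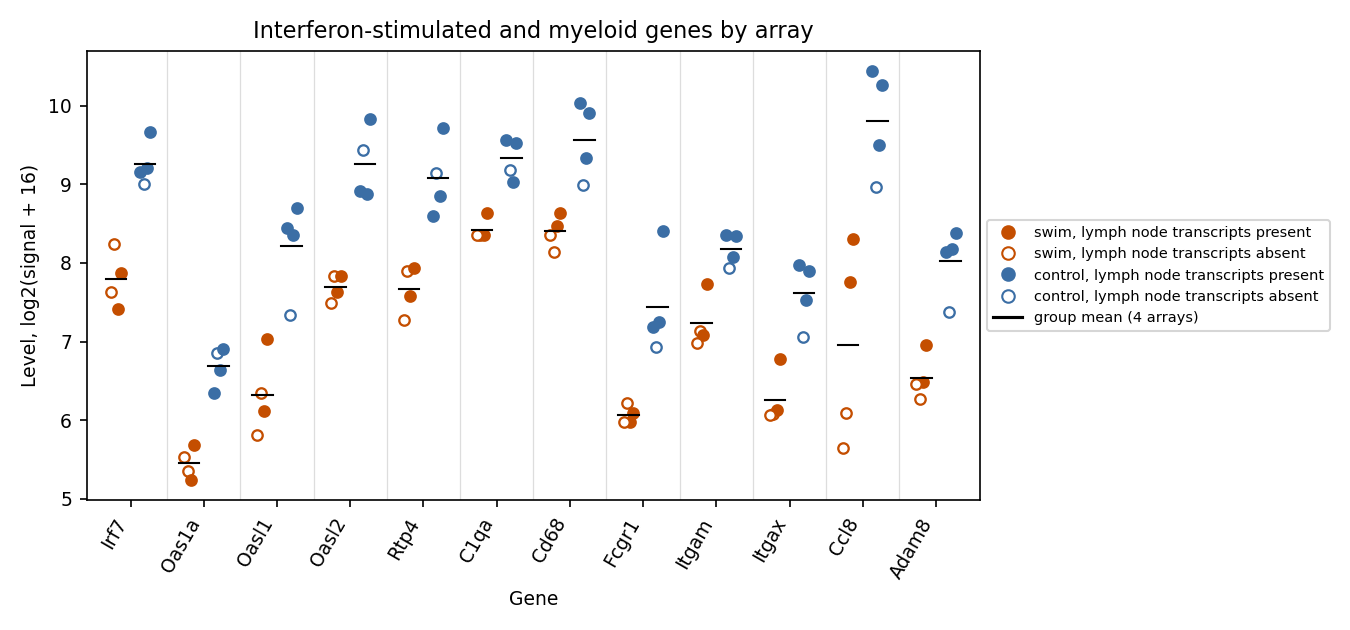
Level of 5 interferon-stimulated genes, 5 macrophage genes, Ccl8 and Adam8 on each array (log2 of signal + 16), swim points left of control points, filled where lymph node transcripts were present and open where absent, with a bar at each group's mean of 4 arrays. In each of these genes the highest swim array lies below the lowest control array.

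Lipogenic genes, which make fatty acids and triglyceride, had higher means in swim arrays for 22 of the 23 tested. Elovl6, which elongates saturated fatty acids, was at 11.77, 11.68, 12.04 and 11.64 in swim arrays 21 to 24, against 10.46, 10.54, 9.13 and 10.32 in control arrays 17 to 20. Its groups did not overlap, control 19 stood apart below the other controls, and the difference was 1.67 ± 0.31 (adjusted p = 0.203). Mlxipl, the carbohydrate-responsive factor ChREBP that drives lipogenic genes, was at 9.99, 9.74, 9.48 and 9.83 in swim arrays, against 9.06, 8.23, 7.70 and 7.81 in control arrays, and passed with the block (1.39 ± 0.22, adjusted p = 0.0482). Acly, which makes cytosolic acetyl-CoA, and Me1, a source of NADPH, differed by 1.33 ± 0.45 and 1.38 ± 0.49 without overlap, and Acacb, an acetyl-CoA carboxylase, by 1.1 ± 0.39 with overlap.

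Of the 23 genes tested, 14 were higher (10.4% of all genes) and 0 lower at an unadjusted p under 0.05. Of these 23, 5 did not overlap (3.54% of all genes) and 14 stayed apart within both strata (10.9% of all genes). The median of 0.88 was 1.05 in arrays with lymph node transcripts and 0.16 in those without. Leaving out swim 23 or swim 24 left 6 genes at an unadjusted p under 0.05, leaving out control 19 left 9, and without control 17, 18 passed the adjusted threshold higher (18.1% of all genes). The adipocyte list moved with these genes. Control 19 was lowest and swim 21 highest in both lists.

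Other lists of metabolism also had larger medians in arrays with lymph node transcripts. For fatty acid oxidation 9 of 17 genes were higher at an unadjusted p under 0.05 (10.4% of all genes), and 2 to 5 when swim 22, swim 23, swim 24 or control 19 was left out, with a median of 0.92 with and 0.11 without lymph node transcripts. Acadm, the medium-chain acyl-CoA dehydrogenase, was at 11.89, 12.09, 11.66 and 11.73 in swim arrays, against 11.56, 11.35, 10.54 and 10.68 in control arrays, and Hadhb, a subunit of the trifunctional protein, differed by 0.93 ± 0.35. In the respiratory chain 11 of 22 genes were higher at an unadjusted p under 0.05 (10.4% of all genes) and all 22 had higher means, led by the complex I subunit Ndufs1 at 1.05 ± 0.32. That list's median was 0.77 with and 0.10 without lymph node transcripts, and 3 to 6 genes were at an unadjusted p under 0.05 when swim 22, swim 23, swim 24 or control 19 was left out. Cholesterol synthesis had 9 of 16 genes higher at an unadjusted p under 0.05 (10.4% of all genes), with medians of 0.70 and 0.42 in the strata with and without lymph node transcripts. Sqle, the squalene epoxidase, was at 7.81, 8.63, 7.58 and 8.55 in swim arrays, against 7.43, 7.02, 6.70 and 7.01 in control arrays. Sc5d, which acts late in the pathway, differed by 1.16 ± 0.30, and Insig1, which holds back SREBP, by 1.04 ± 0.29.

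Lipolysis and lipid droplet genes had 4 of 18 higher at an unadjusted p under 0.05 (10.4% of all genes) and 0 that did not overlap (3.54% of all genes), and the 4 became 1 without control 19, 2 without swim 24 and 7 without swim 22. Gpihbp1, which carries lipoprotein lipase across the capillary, differed by 1.40 ± 0.41 and the droplet coat protein Plin2 by 0.68 ± 0.24. Among 17 adipocyte genes 3 were higher at an unadjusted p under 0.05 (10.4% of all genes) and 6 without swim 22. The list median was 0.68 with and -0.04 without lymph node transcripts. Lep, which encodes leptin, was at 11.54, 9.48, 10.42 and 11.02 in swim arrays, against 10.91, 8.89, 7.45 and 9.35 in control arrays. Control 17 lay among the swim arrays there. The adipokine Nrg4 differed by 1.56 ± 0.42, the glycerol channel Aqp7 by 1.08 ± 0.32 and the insulin-responsive glucose transporter Slc2a4 by 1.47 ± 0.53. Of 17 genes of glucose uptake and glycolysis 6 were higher at an unadjusted p under 0.05 (10.4% of all genes), Hk2 among them at 1.18 ± 0.44. Of 17 insulin signalling genes 3 were higher (10.4% of all genes), including the receptor Insr at 0.83 ± 0.25 and its substrate Irs1 at 1.31 ± 0.55. These counts were 2 to 4 and 1 to 3 when swim 22, swim 23, swim 24 or control 19 was left out. None of the lipolysis, adipocyte, glycolysis or insulin signalling genes passed the adjusted threshold over all arrays or with the block. Without control 17, 6 lipolysis, 9 adipocyte, 8 glycolysis and 5 insulin signalling genes passed it higher (18.1% of all genes).

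**Figure D4:**
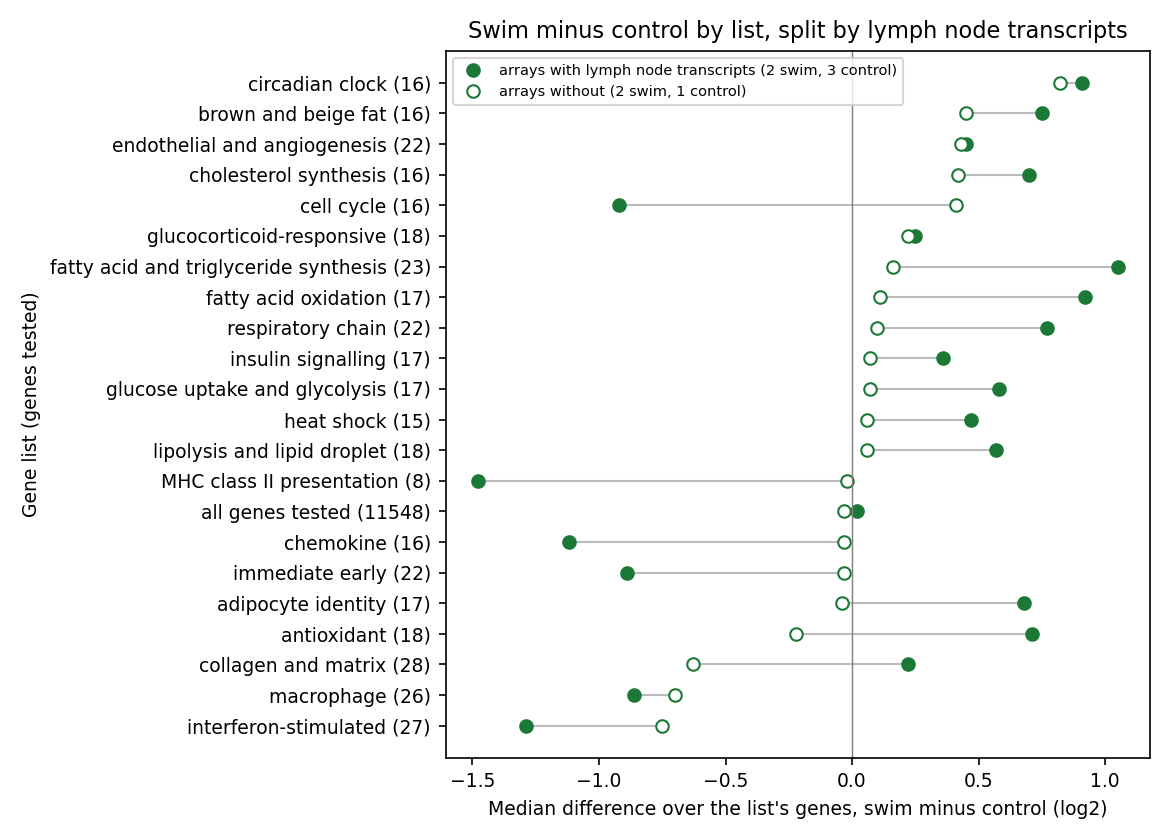
Median swim minus control difference (log2) over the genes of each list and over all genes tested, computed in the 5 arrays with lymph node transcripts (2 swim, 3 control; filled) and in the 3 without (2 swim, 1 control; open). Most lists keep their side in both, among them the clock, endothelial, interferon and macrophage lists and also brown and beige fat and cholesterol synthesis. Several others that keep it lie close to the median over all genes in the arrays without lymph node transcripts. Examples are respiratory chain (0.10), lipolysis (0.06), chemokine (-0.03) and MHC class II (-0.02). The adipocyte, antioxidant, collagen and cell cycle lists change sign, as does the median over all genes (0.02 with and -0.03 without).

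Of 16 brown and beige fat genes tested, 14 had higher and 2 lower means in swim arrays, with a median difference of 0.82, and 0.75 and 0.45 in the arrays with and without lymph node transcripts. At an unadjusted p under 0.05, 5 were higher (10.4% of all genes) and 2 lower (11.1% of all genes), and the 5 became 1 without swim 24 or control 19. Ppara, the fatty acid receptor, was at 8.78, 9.64, 8.48 and 8.88 in swim arrays, against 7.79, 8.11, 7.18 and 6.91 in control arrays, with the highest value in swim 22, and its difference of 1.45 ± 0.33 was 1.22 without that array. Cidea, a lipid droplet protein high in brown fat, was at 9.75, 10.05, 9.40 and 10.10 in swim arrays, against 8.62, 9.86, 7.5 and 7.90 in control arrays, where control 18 lay among the swim arrays. Otop1 differed by 1.03 ± 0.40, again with control 18 high at 9.18. Ucp1, another member of the list, named after its values were seen, was highest in control 18 at 10.85. Its difference was 0.48 ± 0.96 when both fats were fitted together. The beige markers Tmem26 and Tnfrsf9 went the other way, at -1.31 ± 0.29 and -1.57 ± 0.60. Tmem26 fell with the block by 1.12 ± 0.16 (adjusted p = 0.0387), and Tnfrsf9, which activated lymphocytes also express, was 5.39 to 6.48 in swim arrays and 5.45 in control 17, against 7.98 to 8.18 in the control arrays with lymph node transcripts.

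Of 22 endothelial genes tested, 20 had higher means in swim arrays. Flt1, the VEGF receptor 1, was at 9.31, 8.67, 8.34 and 9.09 in swim arrays 21 to 24, against 8.12, 7.26, 7.06 and 7.17 in control arrays 17 to 20. Esam, an adhesion molecule of endothelial junctions, was at 9.80, 8.96, 8.96 and 9.82 in swim arrays, against 8.84, 8.12, 8.16 and 8.25 in control arrays. In both genes the groups did not overlap and the arrays without lymph node transcripts were the highest of their group. With the block Flt1 rose by 1.25 ± 0.14 (adjusted p = 0.0325) and Esam by 0.85 ± 0.12 (adjusted p = 0.0343). Kdr, the main VEGF receptor, and Emcn, an endothelial sialomucin, differed by 0.76 ± 0.20 and 1.25 ± 0.28 without overlap, and Sox17, an arterial transcription factor, by 1.0 ± 0.33 with overlap. Emcn was highest in swim 22 at 10.20, and its difference was 1.01 without that array. At an unadjusted p under 0.05, 10 were higher (10.4% of all genes) and 0 lower, and 6 were higher without swim 24. Of the 22, 5 did not overlap (3.54% of all genes), 11 stayed apart within both strata (10.9% of all genes) and 2 passed with the block (0.346% of all genes). The genes with lower means, named after their values were seen, were the diaphragm protein Plvap (-0.72 ± 0.32) and the adhesion molecule Pecam1 (-0.08 ± 0.23), of which Pecam1 changed sign under some other settings. The median difference was 0.63, with 0.45 and 0.43 in the arrays with and without lymph node transcripts. The 7 smooth muscle genes, which mark the vessel wall, had list means of 8.91, 8.27, 8.14 and 9.06 in swim arrays, against 8.37, 7.81, 8.0 and 7.51 in control arrays. Their median difference was 0.68, with 0.55 and 0.54 in the same strata. Of the 7, 3 were higher at an unadjusted p under 0.05 (10.4% of all genes). Their part in the endothelial result was not tested.

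Among 28 collagen and matrix genes, 2 were higher and 4 lower at an unadjusted p under 0.05, shares near those of all genes (10.4% and 11.1%). Timp3, an inhibitor of metalloproteases, was at 11.04, 11.60, 10.28 and 10.90 in swim arrays, against 9.71, 8.91, 9.47 and 9.41 in control arrays, a difference of 1.58 ± 0.29 that was 1.37 without swim 22. The related inhibitor Timp1 went the other way by -0.94 ± 0.30, as did fibronectin, Fn1, by -0.96 ± 0.33 and the metalloprotease Mmp3 by -1.70 ± 0.53, each without overlap, while Col8a1 differed by 1.27 ± 0.40. Control 17 held the highest mean of the list at 9.89.

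Cdkn1a, the cell cycle inhibitor p21, was at 8.19, 7.41, 7.8 and 8.81 in swim arrays, against 8.99, 9.54, 10.30 and 9.24 in control arrays, while Fkbp5, a co-chaperone induced by glucocorticoids, differed by 0.61 ± 0.18 and Klf9 by 1.17 ± 0.35. In that glucocorticoid-responsive list 3 of 18 were higher (10.4% of all genes) and 1 lower (11.1% of all genes) at an unadjusted p under 0.05. Of 22 immediate early genes 6 were lower (11.1% of all genes) and 0 higher at that threshold, led by Zfp36, which shortens cytokine mRNAs, at -0.91 ± 0.21 and by Egr2 at -1.12 ± 0.31. The transcription factors Egr1 and Nr4a1 differed by -1.41 ± 0.46 and -1.48 ± 0.42 and the cytokine inhibitor Socs3 by -1.51 ± 0.48. A dimmer second probe set of Socs3 differed by -0.31. The median of that list was -0.89 with lymph node transcripts and -0.03 without. Of 15 heat shock genes 12 had higher means and 2 were higher at an unadjusted p under 0.05, a share near that of all genes (10.4%). Hsph1, a nucleotide exchange factor for Hsp70, differed by 0.71 ± 0.33 with overlap between the groups (adjusted p = 0.247 in limma). With the block its difference was 0.94 ± 0.14 (adjusted p = 0.0417). Hspa4l of the same family differed by 0.91 ± 0.26. Of 18 antioxidant genes 5 were higher at that threshold (10.4% of all genes), and 1 to 3 when swim 22, swim 23, swim 24 or control 19 was left out. They held the mitochondrial peroxiredoxin Prdx3 at 0.84 ± 0.26, and 1 gene was lower (11.1% of all genes), the heme oxygenase Hmox1 at -1.08 ± 0.33.

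Several genes outside these lists ranked among the 10 smallest p values on the high side. Alas2, the erythroid enzyme that starts heme synthesis, was at 8.02, 8.0, 7.11 and 7.76 in swim arrays 21 to 24, against 6.49, 5.77, 5.46 and 5.24 in control arrays 17 to 20. It rose by 1.83 ± 0.25 with the block (adjusted p = 0.0356). It was the only red blood cell gene of its list above the filter on dim probe sets. The control mean of Alas2 was 5.74, and its swim values carried it past that filter. Slc15a2, a peptide transporter known from kidney, was at 7.06, 7.91, 6.73 and 6.87 in swim arrays, against 4.61, 4.34, 5.75 and 4.56 in control arrays. Its highest value was in swim 22, the array with kidney transcripts, and the groups did not overlap. The difference of 2.33 ± 0.37 was 2.08 with the kidney list as a covariate and passed with the block (adjusted p = 0.0482). The control mean of Slc15a2 was 4.82, and its swim values carried it past the filter on dim probe sets. It was tested in 18 of 28 alternative settings. The noncoding transcripts 2310067E19Rik, 9530091C08Rik, A330023F24Rik and Gdap10 differed by 2.20 ± 0.33, 1.80 ± 0.28, 1.43 ± 0.21 and 1.29 ± 0.18. All 4 were without overlap and passed with the block (adjusted p of 0.0109, 0.0333, 0.0482 and 0.0387). The control means of 2310067E19Rik, 9530091C08Rik and A330023F24Rik were 5.3, 5.46 and 5.76, and their swim values carried them past the filter on dim probe sets.

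Visceral fat, the other white fat of the series with 4 swim and 4 control arrays of the same strain, age and protocol, served to ask which of these differences were particular to the subcutaneous depot. Over the 16 arrays of both fats, normalized together, 0 of 11526 genes passed limma's test of the difference between the effects (0%), and the smallest adjusted p was 0.0965. At an unadjusted p under 0.05 the subcutaneous effect was higher for 1201 genes (10.4%) and lower for 1123 (9.74%). The same test with each fat's own spread called 6 genes, all lower in subcutaneous fat. They were Tcirg1, a proton pump subunit of acidic organelles, Cd300a, Cd300c2, a receptor of myeloid cells, Myo1f, a myosin of blood cells, Adam8 and Itgax, each at an adjusted p of 0.0458.

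Lymph node and B cell transcripts differed between the fats too. Their list medians were -2.28 and -2.39 in subcutaneous fat, against -0.33 and -0.10 in visceral fat, the test of the difference had no lymph node block, and their part in the results that follow was not tested. Of 25 macrophage genes tested, 19 had a lower subcutaneous effect (9.74% of all genes) and 0 a higher one at an unadjusted p under 0.05, with median effects of -0.95 in subcutaneous and 0.35 in visceral fat. Itgax differed by -1.44 ± 0.29 in subcutaneous and 0.78 ± 0.29 in visceral fat, and Cd68 by -1.21 ± 0.30 and 0.69 ± 0.30. Lilrb4a, an inhibitory receptor of myeloid cells, differed by -1.14 ± 0.26 in subcutaneous and 0.95 ± 0.26 in visceral fat. Interferon-stimulated genes also had a lower subcutaneous effect in 19 of 24 genes at an unadjusted p under 0.05 (9.74% of all genes), with medians of -1.14 in subcutaneous and -0.09 in visceral fat. Irf7 differed by -1.55 ± 0.18 in subcutaneous and -0.37 ± 0.18 in visceral fat.

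Clock genes leading the subcutaneous comparison had the same sign in visceral fat. The medians over 16 genes were 1.12 in subcutaneous and 0.97 in visceral fat. At an unadjusted p under 0.05 the subcutaneous effect was higher for 3 (10.4% of all genes) and lower for 2 (9.74% of all genes). The higher ones included Hlf at 2.31 ± 0.26 in subcutaneous and 1.40 ± 0.26 in visceral fat, and Tef at 2.19 ± 0.29 and 1.23 ± 0.29. Per3 differed by 2.49 ± 0.28 in subcutaneous and 1.99 ± 0.28 in visceral fat, Per2 by 1.90 ± 0.21 and 1.55 ± 0.21, and Arntl by -1.60 ± 0.20 and -2.18 ± 0.20. Ciart differed by 1.83 ± 0.29 in subcutaneous and 2.85 ± 0.29 in visceral fat (adjusted p of the difference = 0.239). A p that misses the threshold does not show that the fats responded alike. On the higher side, the genes of smallest p were Tlcd4 at 1.96 ± 0.40 in subcutaneous and -0.93 ± 0.40 in visceral fat, Alas2 at 2.08 ± 0.26 and 0.41 ± 0.26, Il17rb, a subunit of the interleukin-25 receptor, at 0.57 ± 0.17 and -0.50 ± 0.17, the co-chaperone Dnajb4 at 0.79 ± 0.16 and -0.20 ± 0.16, and Fkbp5 at 0.65 ± 0.16 and -0.33 ± 0.16. None of these 5 passed, with adjusted p of the difference between 0.165 and 0.206. The median difference over all genes was 0.08, and it was 0.21 in values as deposited and 0.33 with arrays centred on their medians.

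**Figure D5:**
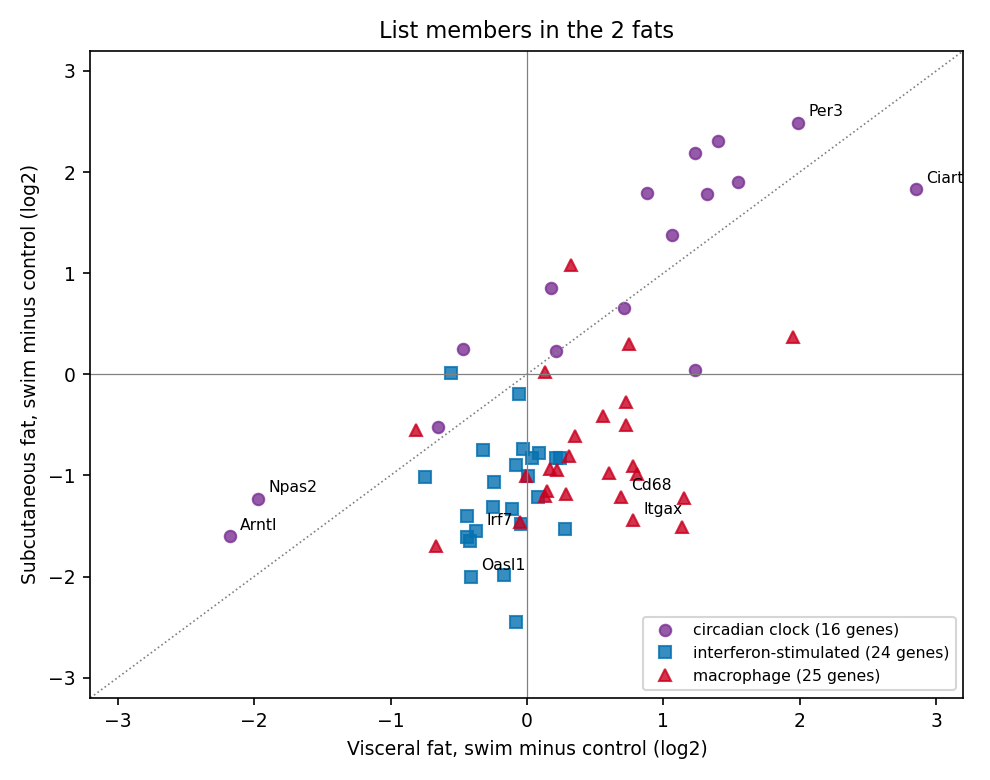
Swim minus control difference (log2) of the clock, interferon-stimulated and macrophage genes, with subcutaneous fat on the vertical axis and visceral fat on the horizontal axis, each point a gene and the dotted line marking equal effects. Per3 and Ciart stand high and Arntl and Npas2 low on both axes, most interferon-stimulated genes lie below zero on the vertical axis and near zero on the horizontal axis, and most macrophage genes lie below the line.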

How the data were processed

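Whole fat tissue was profiled on Affymetrix Mouse Gene ST arrays. The deposited values give the linear signal intensity of each probe set. The submitters' processing notes name PLIER and limma, without a role for either. Tool versions, settings and genome build are not given in the sources used here. Of 25917 probe sets, the platform annotation gave 21086 a single gene symbol, and the 1867 with several and 2964 with none were left out, leaving 18759 symbols.

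Intensities became log2(signal + 16), were quantile normalized within the tissue, and the lowest 40% were left out by mean. That mean was taken over the arrays of both groups, so a gene dim in 1 group could be tested through its level in the other. Besides those marked above, named genes of this kind included Tlcd4, Col8a1, Ccl3, Cxcl1, Timp1, Tmem26 and Tnfrsf9. The brightest probe set stood for a gene. This left 11548 genes, tested with limma 3.58.1 in R 4.3.3 (statmod 1.5.0) with Benjamini-Hochberg adjustment over all of them. The difference between fats was fitted over 16 arrays and 11526 genes. Figures used matplotlib 3.10.9. The code was tested on simulated data. Arrays were grouped by their labels, and the number of arrays limits the precision.

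The members and the 37 gene lists (21 of function, 16 of composition; 580 of 635 names matched) were chosen with earlier results of these data known. Genes named were the 10 of smallest p in each direction, all clock genes, up to 5 of smallest p per function list, and the 5 of smallest p in each direction of the difference between fats. Alternatives varied scaling, pseudocount, filter, probe set rule, variance model, array content and the arrays included. The lymph node block (Glycam1 above 9) and the fit of the 16 fat arrays were chosen after seeing the data. Promoters came from a RefSeq table of GRCm38.p6.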

Additional observations from a re-analysis of the deposited data

Results flagged for a closer look

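Of 364 groups of 4 arrays checked, 26 (7.14%) held an array far from the other 3, where chance gives about 1 in 20. Control 17 stood low in the list means of MHC class II (8.07), lymph node (6.43), B cell (5.46) and T and NK cell genes (5.40), and in Cd74 (10.19), Ctss (8.65), H2-DMa (7.45), H2-Ab1 (9.81), H2-Eb1 (9.48), Ciita (6.3), Tnfrsf9 (5.45), Aurka (5.8) and Pecam1 (8.94). It stood high in the collagen and matrix list mean (9.89), in Sparcl1 (10.5) and in Grb10 (8.67).

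Transcripts of other tissues gave the kidney list mean of swim 22 (12.11), the skeletal muscle list means of swim 23 (10.87) and control 20 (7.98), and the skin list mean of swim 24 (12.03). Control 18 was high in the brown and beige fat list mean (8.55) and low in Igf1r (7.13). Control 19 was high in Ccl3 (7.65) and low in Elovl6 (9.13). Swim 23 was high in C1qa (8.64) and Itgax (6.78), both still below every control array.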

How the results depend on the processing

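The count of genes passing an adjusted p under 0.05 was 0 in limma and 0 under centring, quantile normalization over all arrays, other pseudocounts, filters and probe set rules, the trended and robust fit, either single covariate, and either lymph node stratum alone. It was 4 in values as deposited, 1 with B cell and kidney covariates, 62 with the lymph node block, 2727 in 1 fit of the 16 fat arrays, 4370 without control 17 and swim 22, 5715 with array weights and 6637 in 1 fit of all 54 arrays. Leaving out 1 array gave 0 to 3976, and only control 17 gave a count above 0. The fitted weight of control 17 was 0.191, the lowest, and that of control 18 was 9.43. For the difference between fats the count of 0 became 1 with centring, 6 with each fat's own spread, 5 without swim 22 and swim 23, 5497 without control 17 and swim 22, and 5572 with array weights. Leaving out 1 array gave 0 to 4802, with 4802 without control 17, 2 without swim 23 and 1 without control 19. The cause was not tested.

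Of the genes that the naming rule or the text gives, 148 were checked, and 134 of them never changed sign over 4047 comparisons. In arrays without lymph node transcripts 14 did: Aurkb 0.46, H2-Ab1 0.14, Mcm4 0.14, Mcm5 0.20, Pecam1 0.63, Bhlhe40 -0.07, Clock -0.29, Gpnmb -1.48, Grb10 -0.13, Hspd1 -0.33, Lgals3 -0.36, Mrc1 -0.36, Prdx1 -0.01 and Rbp4 -0.13. Of these, 6 also turned elsewhere. With the B cell covariate and with both covariates, Clock was -0.04 and -0.04, Gpnmb -0.32 and -0.60, Lgals3 -0.10 and -0.03, Mrc1 -0.22 and -0.12, and Pecam1 0.12 and 0.31. Bhlhe40 was -0.28 with both covariates, -0.17 with the kidney covariate, -0.15 with array weights, -0.19 without control 17 and swim 22, and -0.08 without swim 22 and swim 23. Mrc1 was -0.11 with the lymph node block. Pecam1 was 0.04 in values as deposited and 0.04 with centring. With single arrays left out Bhlhe40 ranged over -0.19 to 0.19, Gpnmb over -0.11 to 0.92, Mrc1 over -0.22 to 0.18 and Pecam1 over -0.28 to 0.01. No paired analysis was possible because the array numbers of the groups are all different.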

Other observations

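Among the 40 genes higher with the lymph node block were several outside the lists, named here after their values were seen. Btnl9 was at 9.36, 8.18, 8.47 and 9.22 in swim arrays 21 to 24, against 8.03, 7.01, 6.79 and 7.0 in control arrays 17 to 20. Ptprb, a phosphatase of the vessel wall, was at 10.08, 9.10, 8.94 and 9.89 in swim arrays, against 9.03, 7.67, 7.37 and 7.73 in control arrays. The junction molecule Jam2 was at 9.54, 8.30, 8.55 and 9.44 in swim arrays, against 8.49, 7.21, 6.88 and 7.07 in control arrays. In all 3 genes the arrays without lymph node transcripts were the highest of their group. With the block they rose by 1.34 ± 0.13, 1.26 ± 0.16 and 1.24 ± 0.15 (adjusted p of 0.0325, 0.0333 and 0.0333 in limma). The adhesion receptors Adgrf5 and Adgrl4 rose by 1.37 ± 0.15 and 1.09 ± 0.17, and the matricellular Sparcl1 by 1.06 ± 0.12 (adjusted p of 0.0325, 0.0483 and 0.0325).

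On the lower side Cd5l, a secreted protein of tissue macrophages, was at 4.65, 5.35, 5.25 and 4.21 in swim arrays, against 6.38, 8.78, 9.66 and 8.38 in control arrays. It fell by 3.03 ± 0.40 with the block (adjusted p = 0.0339). Its control values carried it past the filter on dim probe sets, and it was tested in 24 of 28 alternative settings. Of the 39 higher genes with an annotated type, 7 were not protein-coding, beside 0 of 22 lower genes and 2.55% of the 11541 tested genes with a type.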
